A study of Rattus norvegicus with 2 samples.

Results

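The DNA replication and S phase genes described here are a set of 36 genes, chosen by name from those that license, start and carry out DNA synthesis. They were sought among 13435 genes that could be named on the array, and 31 of the 36 had at least 1 probe whose accession matched. Mcm3, Mcm5, Gins1, Chaf1a and Uhrf1 had no matched probe and are not analysed here. The 31 genes were covered by 45 probes, and 30 genes gave a signal well above background on both arrays.

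The material was whole kidney from PCK rats, all female. PCK animals carry a Pkhd1 mutation, develop kidney cysts and are used to model the human recessive form of polycystic kidney disease. The pioglitazone group was gavaged daily with 10 mg/kg of pioglitazone, a drug that activates PPAR-gamma, from 4 to 20 weeks of age, and the control group received vehicle with 0.5% DMSO on the same schedule. RNA of each group was pooled and hybridised to 1 single-colour Agilent array, so each value below comes from 1 pool, and the labels give the pool size once as 5 and once as 3 rats. The +/+ rats named in the treatment text are not analysed here.

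With 1 array per group no difference has a replicate check and no p-value was computed. Each difference is the log2 signal of the pioglitazone pool minus that of the vehicle pool, after each array was scaled to its 75th percentile, which removed a shift of 0.08. The error given with it is the technical error that the scanner software assigns to both spots together, and it holds no spread between animals. A gene was counted as lower or higher when it differed at least 1.5-fold, which is 0.58 on the log2 scale, and by more than 2 times this error. For bright genes this error is nearly constant, and its smallest value among the members was 0.204. There, 2 times the error is near 0.41, so the fold limit alone decides. Signals are printed as deposited, before scaling, and signals of different probes are not compared with each other. In whole kidney, fewer dividing cells and less RNA per dividing cell cannot be told apart. All 6 proximal tubule markers were measured, and Umod, which encodes the most abundant protein of normal urine, had signals of 220000 with pioglitazone and 195000 with vehicle.

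Before S phase, the origin recognition complex, Cdc6 and Cdt1 load the ring of MCM proteins onto DNA in an inactive form. Kinases then convert it into the active helicase by adding Cdc45 and the GINS complex, with Mcm10, and polymerases held by the clamp Pcna copy both strands. Cyclin E and the transcription factor E2f1 govern entry into this phase. Most cells of an adult kidney are not dividing, while proliferation of tubule cells is a known feature of cyst growth.

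Of the 30 measured members, 4 were lower with pioglitazone and 0 were higher. The count of lower members was 2 with arrays scaled to the median or left unscaled, and 0 after normexp background correction. Over all 10484 measured genes, 1.76% were lower and 0.754% were higher by the same criterion, against 13.3% lower among the members. The members were chosen with earlier results of these data known, so this contrast is not independent of the data. The 4 genes were Mcm10 and Gins2 of the helicase machinery, the ribonucleotide reductase subunit Rrm2 and cyclin E1 (Ccne1). The median difference of the members was -0.09, and that of all measured genes 0.03. Differences lay below 0 in 23 of the 30, against 43.8% of all measured genes. Most members hardly differed: 21 lay within 0.2 of 0, and 21 within 1 technical error. On its brightest probe no member exceeded 0.08 on the positive side, the value of the licensing factor Cdc6, whereas the negative side reached -0.97 for Mcm10. Dimmer probes of Rrm1 gave 0.25 and 0.31. A further 4 members, Slbp, E2f1, Chaf1b and Cdt1, lay between -0.46 and -0.53 without meeting the criterion. Below -0.4, a limit chosen after the values were seen, were 8 members, or 26.7%, against 5.06% of all measured genes.

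**Figure D1:**
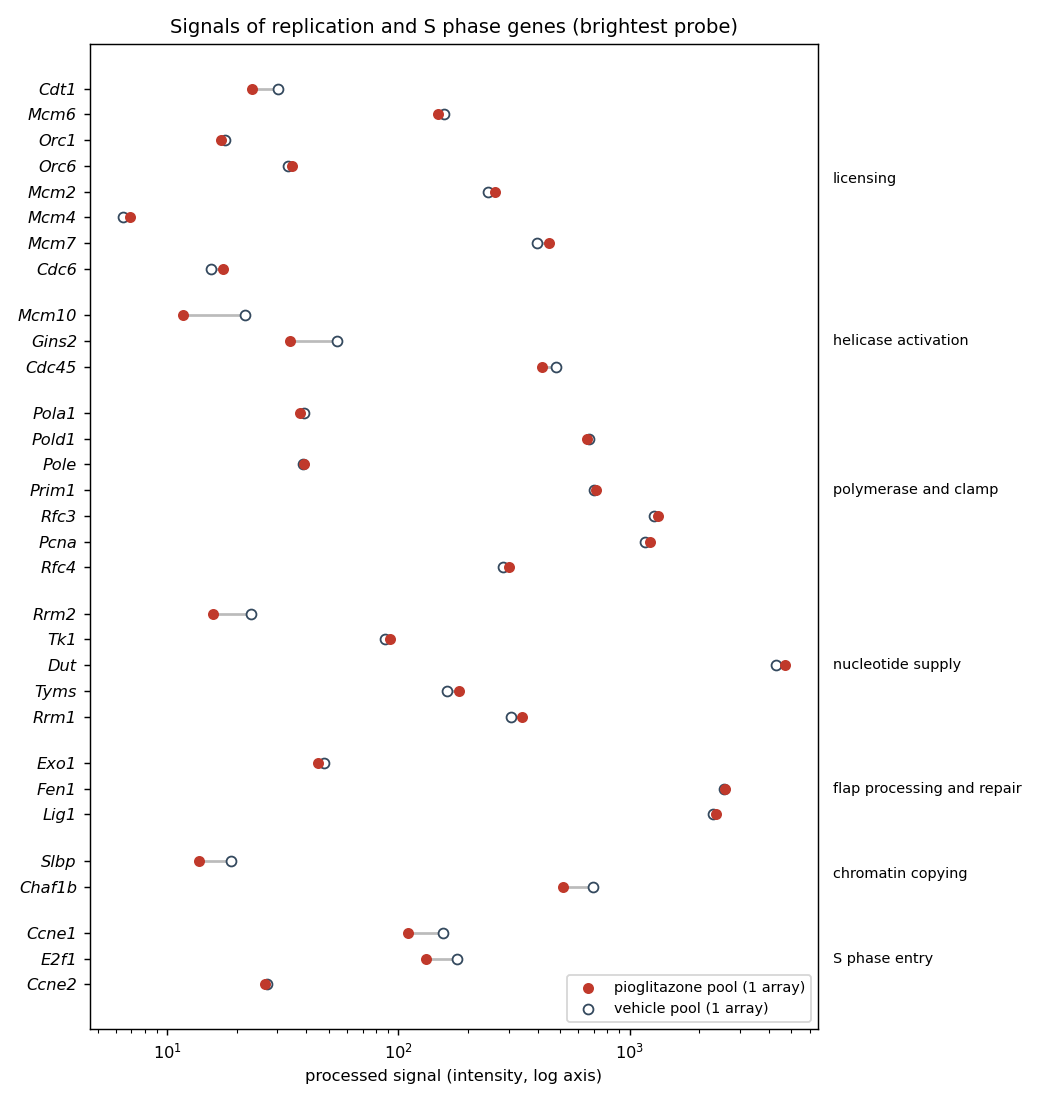
Processed signal (intensity, log axis) of the brightest probe of each of the 31 genes with a probe, grouped by role, with the pioglitazone pool as filled red points and the vehicle pool as open points. Clear gaps with the pioglitazone point on the left are seen for Mcm10, Gins2, Rrm2, Slbp, Chaf1b, Ccne1 and E2f1, while most pairs nearly coincide. Positions of different genes along the axis do not compare their expression.

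Origin licensing showed little difference. None of its 7 measured members was called, and their median was -0.03. Mcm2 had signals of 262 with pioglitazone and 244 with vehicle, a difference of 0.02 ± 0.20 (technical error), and a second probe gave -0.04. Mcm7 had signals of 446 with pioglitazone and 399 with vehicle, a difference of 0.08 ± 0.20. Both subunits of the MCM ring were thus within their error of 0. Mcm6, another ring subunit, was at -0.17 ± 0.21, with signals of 148 in the pioglitazone pool and 157 in the vehicle pool. Among the loaders, Orc1, the largest subunit of the origin recognition complex, was at -0.14, and Orc6, its smallest, was at -0.03. Cdc6, an ATPase that recruits the MCM ring, was at 0.08 ± 0.30, with signals of 17.4 with pioglitazone and 15.5 with vehicle. The licensing factor Cdt1 stood lowest of the group, with signals of 23.2 in the pioglitazone pool and 30.1 in the vehicle pool. Its difference of -0.46 was within 2 times its error (0.48). Cdt1 and Cdc6, partners in the same loading step, thus lay on opposite sides of 0, both within 2 errors. Mcm4 was not well above background on either array, with signals of 6.92 for pioglitazone and 6.43 for vehicle, so no difference is given.

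The helicase activation group held the largest differences. Mcm10, which binds the MCM helicase and polymerase alpha at the start of synthesis, had a signal of 11.7 with pioglitazone and 21.7 with vehicle. It was 1.96-fold lower, at -0.97 ± 0.37, and only 33 of the 10484 measured genes, itself included, lay as low or lower. The lowest signal that counted as well above background was 7.16 on the pioglitazone array and 7.66 on the vehicle array, so both Mcm10 values were close to the limit of detection. A second Mcm10 probe was not well above background on either array. Gins2, a subunit of the GINS complex, had a signal of 34.0 with pioglitazone and 54.5 with vehicle. It was 1.70-fold lower, at -0.76 ± 0.23. Cdc45, which joins GINS and the MCM ring in the active helicase, had signals of 418 with pioglitazone and 479 with vehicle. Its difference of -0.28 ± 0.20 had the same sign and was within 2 times its error. All 3 measured genes of this group were therefore below 0, and 2 of them passed the criterion.

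On the brightest probe of each gene, the polymerase group stayed within its error. All 7 members differed by less than 1 technical error there, and they ranged from -0.14 to 0.01 with a median of -0.06. Pola1, the catalytic subunit of polymerase alpha, was at -0.14, and its dimmer second probe gave -0.47 ± 0.24. Prim1, the primase that makes the RNA primer, gave -0.06 on both of its probes. Pold1 and Pole, the catalytic subunits of the lagging and leading strand polymerases, were at -0.11 and -0.06. Pcna had signals of 1220 in the pioglitazone pool and 1170 in the vehicle pool, a difference of -0.02 ± 0.20, and 0.09 on a second probe. Rfc3 and Rfc4, subunits of the complex that loads the Pcna clamp, were at -0.04 and 0.006. Pcna is widely used as a marker of proliferation, and its 2 probes lay on both sides of 0.

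Nucleotide supply was uneven. Ribonucleotide reductase turns ribonucleotides into deoxyribonucleotides, and its regulatory subunit Rrm2 is made mainly in S phase. Rrm2 had a signal of 15.8 with pioglitazone and 23.1 with vehicle and was 1.55-fold lower, at -0.63 ± 0.26. Its second probe gave signals of 10.7 with pioglitazone and 13.9 with vehicle, a difference of -0.46 ± 0.39, so both probes were below 0 and only 1 passed. The catalytic subunit Rrm1 had signals of 342 in the pioglitazone pool and 306 in the vehicle pool, a difference of 0.08 ± 0.20, and its other probes gave 0.25 and 0.31. The subunits of the enzyme thus lay on opposite sides of 0 on all 5 of their probes; that contrast between them has no replicate check. Tyms, which makes thymidylate, was at 0.08 with signals of 182 for pioglitazone and 163 for vehicle. The salvage enzyme Tk1 was at -0.0005 with signals of 92.3 for pioglitazone and 87.2 for vehicle. Dut, which removes dUTP, was at 0.04 and 0.05 on its probes.

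Flap processing and repair genes differed little. Fen1, which trims Okazaki fragment flaps, was at -0.07 ± 0.20, with signals of 2580 in the pioglitazone pool and 2560 in the vehicle pool, and -0.22 on a dimmer probe. Lig1, which seals the fragments, was at -0.04 ± 0.20, and the exonuclease Exo1 was at -0.16 ± 0.21. All 3 were within 1 technical error.

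Of the genes that rebuild chromatin behind the fork, both measured ones were near the criterion. Chaf1b, a subunit of the histone chaperone CAF-1, had signals of 517 with pioglitazone and 696 with vehicle. It was 1.43-fold lower, at -0.51 ± 0.20, which exceeds 2 times its error but not 1.5-fold. Slbp, which binds the stem-loop of histone mRNA, had signals of 13.8 with pioglitazone and 18.8 with vehicle, both close to the limit of detection. Its difference of -0.53 ± 0.32 is within 2 times its error. After normexp background correction, whose offset of 50 exceeds these signals, it was at -0.05.

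All 3 S phase entry genes were below 0, and 1 was called. Cyclin E1 (Ccne1), which activates Cdk2, had signals of 110 with pioglitazone and 156 with vehicle and was 1.5-fold lower, at -0.59 ± 0.21, just past the criterion, and this call was lost under 4 of 5 other scalings of the arrays. Its second probe, with signals of 7.78 in the pioglitazone pool and 14.3 in the vehicle pool, gave -0.96 ± 0.37. Its relative cyclin E2 (Ccne2) was at -0.10 ± 0.25, with signals of 26.5 for pioglitazone and 26.9 for vehicle. E2f1 had signals of 132 with pioglitazone and 179 with vehicle, a difference of -0.52 ± 0.21 that is 1.44-fold and so not called. A dim second E2f1 probe, with signals of 11.3 for pioglitazone and 10.8 for vehicle, gave -0.02 ± 0.43. The probes of E2f1 were 0.50 apart, the widest gap among the 10 members with several measured probes, of which 8 had all probes on the same side of 0.

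**Figure D2:**
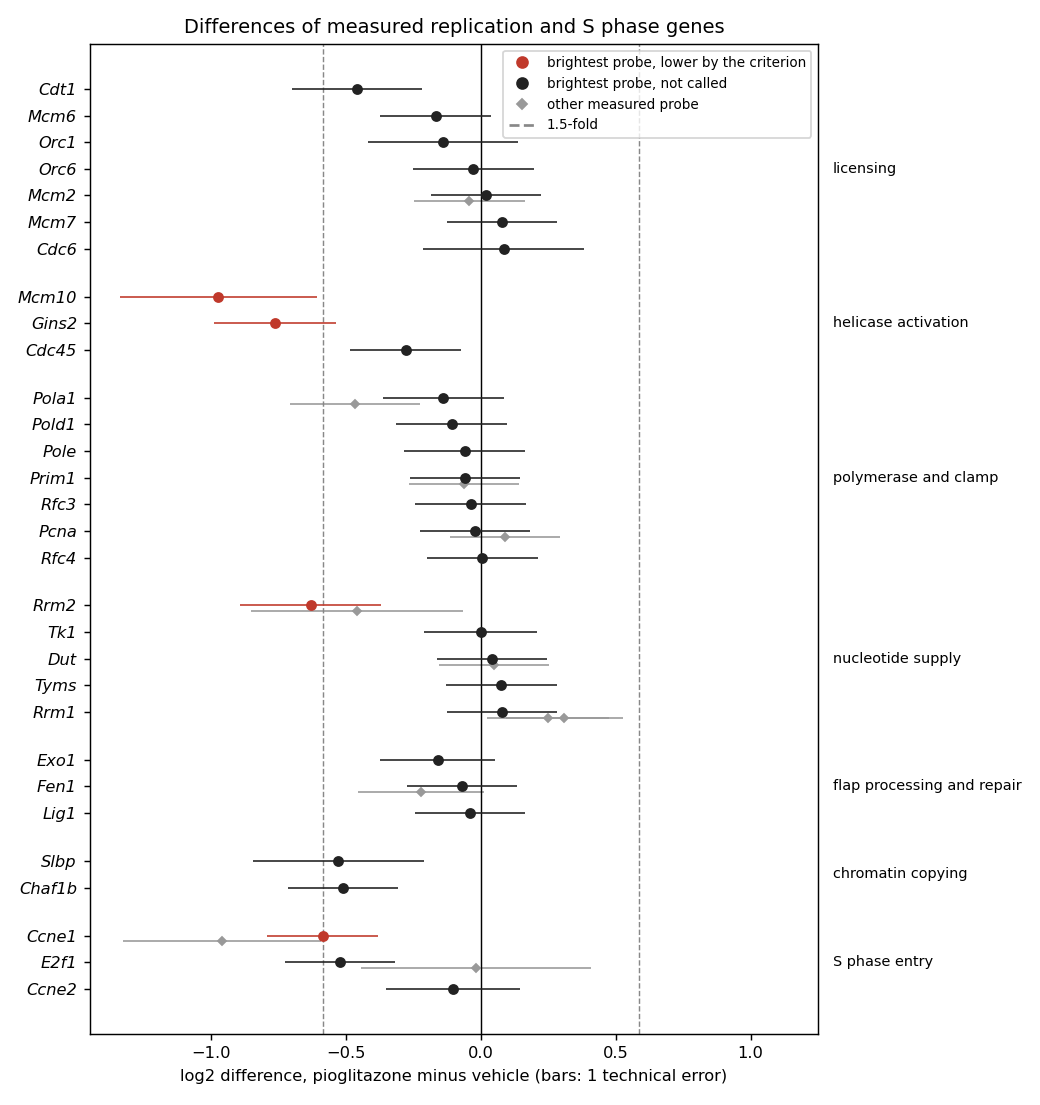
Log2 difference (pioglitazone minus vehicle) of every measured probe of the 30 measured members, grouped by role, with bars of 1 technical error and dashed lines at 1.5-fold. Red points mark Mcm10, Gins2, Rrm2 and Ccne1, the 4 genes that met the criterion, and the licensing, polymerase and repair genes cluster around 0.

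Promoter sequence is shown for the members past the criterion with an entry, for Pclaf, a further replication gene described after them, and for 4 members near 0 that carry a recognition motif of E2F, the family of factors that switch on S phase genes. Each is the 250 bases before the annotated start in the RefSeq GRCr8 assembly, read 5′ to 3′ on the gene's strand. The capitals mark matches to TTTNNCGC or its reverse complement GCGNNAAA, where N is any base. Rrm2 is named only.
Mcm10 (chr17:78175137-78175386, plus strand): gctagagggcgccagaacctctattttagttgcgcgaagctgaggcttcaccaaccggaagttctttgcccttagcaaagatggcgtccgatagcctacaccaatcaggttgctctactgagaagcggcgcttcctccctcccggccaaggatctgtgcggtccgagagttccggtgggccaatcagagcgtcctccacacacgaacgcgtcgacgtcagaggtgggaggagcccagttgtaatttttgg
Gins2 (chr19:65548053-65548302, minus strand): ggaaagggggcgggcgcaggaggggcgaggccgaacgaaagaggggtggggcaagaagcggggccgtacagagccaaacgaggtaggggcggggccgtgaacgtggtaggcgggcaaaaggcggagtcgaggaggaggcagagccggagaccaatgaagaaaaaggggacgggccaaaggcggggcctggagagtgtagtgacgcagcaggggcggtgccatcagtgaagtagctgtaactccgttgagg
Ccne1 (chr1:99927910-99928159, minus strand): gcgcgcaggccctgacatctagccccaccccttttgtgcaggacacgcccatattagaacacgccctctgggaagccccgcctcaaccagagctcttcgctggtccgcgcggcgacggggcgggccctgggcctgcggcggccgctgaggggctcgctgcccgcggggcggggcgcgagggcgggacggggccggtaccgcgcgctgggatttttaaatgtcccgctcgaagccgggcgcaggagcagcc
Pclaf (chr8:75315467-75315716, plus strand): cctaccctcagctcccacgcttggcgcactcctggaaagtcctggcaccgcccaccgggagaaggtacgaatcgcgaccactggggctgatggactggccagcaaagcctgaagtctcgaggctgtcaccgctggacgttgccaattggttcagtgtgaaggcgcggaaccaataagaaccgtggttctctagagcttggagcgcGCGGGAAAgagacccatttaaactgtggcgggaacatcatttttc
Mcm2 (chr4:122918095-122918344, minus strand): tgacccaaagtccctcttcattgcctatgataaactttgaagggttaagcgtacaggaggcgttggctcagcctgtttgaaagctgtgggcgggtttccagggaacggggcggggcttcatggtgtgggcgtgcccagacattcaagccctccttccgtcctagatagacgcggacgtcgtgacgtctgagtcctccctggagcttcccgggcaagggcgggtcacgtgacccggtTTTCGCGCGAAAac
Mcm6 (chr13:42404353-42404602, minus strand): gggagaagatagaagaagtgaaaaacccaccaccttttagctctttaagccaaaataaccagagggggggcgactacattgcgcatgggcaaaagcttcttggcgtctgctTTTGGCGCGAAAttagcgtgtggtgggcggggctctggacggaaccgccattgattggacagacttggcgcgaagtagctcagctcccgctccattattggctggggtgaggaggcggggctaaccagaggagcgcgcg
Mcm7 (chr12:22163179-22163428, minus strand): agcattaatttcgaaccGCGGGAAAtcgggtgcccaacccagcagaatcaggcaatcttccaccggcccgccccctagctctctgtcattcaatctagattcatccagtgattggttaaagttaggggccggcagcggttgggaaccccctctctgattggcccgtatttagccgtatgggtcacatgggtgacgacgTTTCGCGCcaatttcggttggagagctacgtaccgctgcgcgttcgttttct
Tyms (chr9:120776084-120776333, minus strand): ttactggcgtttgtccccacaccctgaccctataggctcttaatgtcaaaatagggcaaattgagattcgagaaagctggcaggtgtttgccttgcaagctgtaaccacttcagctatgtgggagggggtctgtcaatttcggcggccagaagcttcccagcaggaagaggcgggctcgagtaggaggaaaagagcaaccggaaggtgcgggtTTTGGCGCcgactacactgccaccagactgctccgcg

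The 3 called members with a promoter entry held no match in this window, and Rrm2, also called, had no entry. Mcm2 and Mcm6 each held a forward and a reverse match that overlap, 14 and 139 bases before the start. Mcm7 held 2 matches, and Pclaf and Tyms held 1 each. The members near 0 shown here were chosen after their values were seen. Slbp, at -0.53, also held a match, 246 bases before the start. Of the 30 members with a promoter entry, 9 (30%) had a match, against 4.57% of 27457 genes searched in the same way and 4.11% of their 33469 promoters. The shorter form TTNNCGC, chosen after the first search, which is contained in the longer motif and was searched on both strands, was found for 17 of the 30 members (56.7%), for 18.3% of all genes and in 16.7% of all promoters. Of the called members, Mcm10 held 1 match to it, and Gins2 and Ccne1 held 0. Among members that were also measured, the 6 with a match to TTTNNCGC had a median difference of -0.06 and 0 were lower. The 19 without one also had a median of -0.06, and 3 were lower. A further 5 measured members, 1 of them lower, had no promoter entry and are in neither group. A match describes letters in the window and does not show that a factor binds there.

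A wider list of 90 replication genes, taken from the same steps, was set beside the members. Of these, 68 were measured, 4 (5.88%) were lower and 0 higher, and the median was -0.0007. The largest difference was that of Pclaf, which encodes a small protein that binds Pcna. Pclaf had a signal of 35.1 with pioglitazone and 88.6 with vehicle and was 2.67-fold lower, at -1.42 ± 0.22. It was read from 1 spot, and no other probe was matched to it. Only 13 measured genes, Pclaf included, lay as low or lower. Pclaf was thus far below its partner Pcna, which did not differ beyond its error.

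The other 3 lower genes were the chromatin factor Atad2 (-0.75 ± 0.29), the chromatin remodeller Hells (-0.70 ± 0.23) and cyclin A2 (Ccna2, -0.67 ± 0.21). Atad2 had signals of 15.5 with pioglitazone and 24.6 with vehicle, and its 2 further probes gave -0.73 and -0.36. Hells had signals of 31.8 with pioglitazone and 48.7 with vehicle. Ccna2, the cyclin of S phase progression, had signals of 62.3 with pioglitazone and 93.3 with vehicle. All 3 Atad2 probes were below 0, and Hells and Ccna2 were each read from 1 measured probe. Gins3, a partner of Gins2 in the GINS complex, had signals of 7.93 with pioglitazone and 15.0 with vehicle. It was well above background with vehicle alone. Its measured difference was 2-fold lower with pioglitazone, before allowing for the technical error (0.42 on the log2 scale). That value rests on a pioglitazone signal that was not well above background, so it is not a lower limit. Gins4, another subunit of the complex, had signals of 206 with pioglitazone and 193 with vehicle, a difference of 0.01 ± 0.21. The 6 measured helicase activation genes of the wider list had a median of -0.07, and 0 were lower. The largest positive difference was that of Skp2, a ubiquitin ligase subunit that targets a CDK inhibitor, at 0.41 ± 0.31 with signals of 18.1 for pioglitazone and 12.9 for vehicle. Nucleotide supply in the wider list had 8 of 11 genes above 0 and 2 below 0, and none was called. Of all measured genes 43.8% were below 0, and of those with signals over 1000 33.7%. The highest were Rrm2b (0.28 ± 0.31), the p53-induced reductase subunit, and the one-carbon enzyme Shmt2 (0.24 ± 0.20). Of the 11 genes, 10 were within 1 technical error. In both lists together 8 of 98 measured genes were lower, or 8.16%, against 1.76% of all measured genes. After normexp background correction Atad2, Hells and Ccna2 were at -0.22, -0.35 and -0.38 and lost their calls. Ccna2 also lost its call in the unscaled table, and Atad2 as a mean over its probes.

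**Figure D3:**
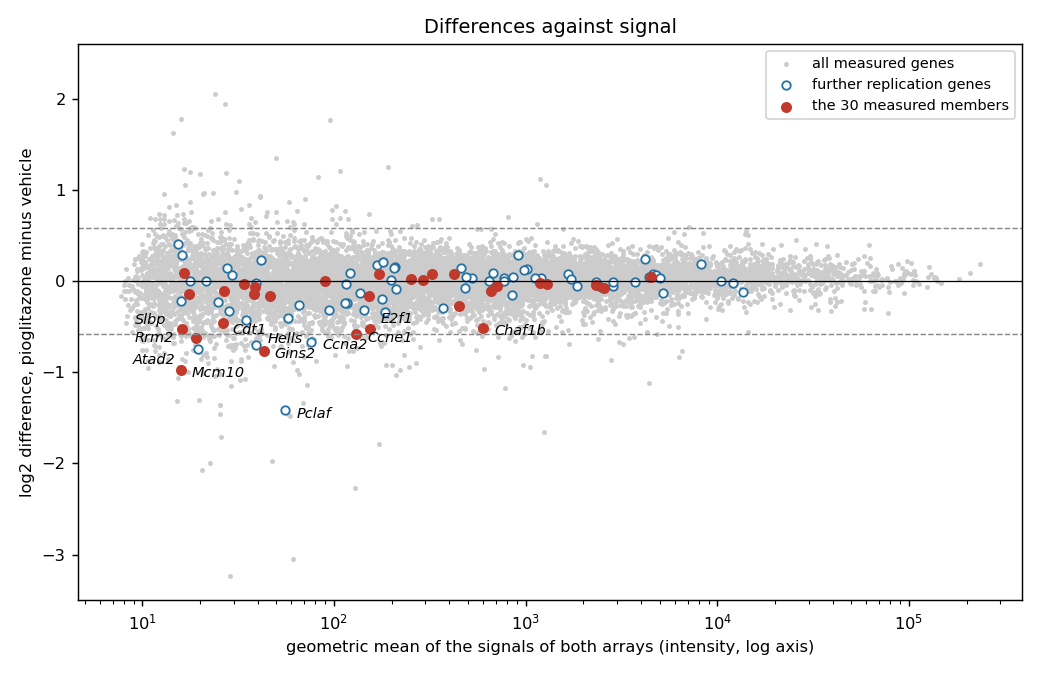
Log2 difference (pioglitazone minus vehicle) against the geometric mean of the signals on both arrays (intensity, log axis), for all measured genes in grey, the 30 members in red and the 68 further replication genes as open blue points, with dashed lines at 1.5-fold. The called members sit at low signal, Pclaf lies lowest of both sets, and members over a signal of 1000 lie close to 0.

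The lower members were mostly dim, where all genes scatter more widely. Below an average signal of 50, the geometric mean over the arrays, 3 of 12 members were lower, against 4.8% of the 1978 measured genes in that class. Between 50 and 200 it was 1 of 5 members, against 2.33% of genes. Above 200 none of 13 members was called, where 0.873% of genes with signals of 200 to 1000 and 0.438% of those over 1000 were lower. Probes printed several times show the noise of a spot directly: below a signal of 50 the difference between arrays varied among replicate spots of a probe with a median SD of 0.19 over 37 probes, and with a highest SD of 0.45. Mcm10, Gins2 and Rrm2 were each read from 1 spot per probe. For signals of 50 to 200, the class of Ccne1, the median SD was 0.09 over 40 probes and the highest was 0.16. The median SD was 0.06 for signals of 200 to 1000 and 0.05 over 1000, well below the technical error near 0.20. Lying within that error is thus a loose limit for bright genes.

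Mitosis genes, a list of 30 of which 19 were measured, are active in the phase that follows. Their median was -0.44, 16 of 19 were below 0, and 3 were lower, namely Ect2 (-0.81), Ccnb2 (-0.68) and Ttk (-0.63). Over all measured genes, 1.76% were lower and 43.8% below 0. The 3 mitosis genes above 0 were Aurka (0.11), Kif23 (0.13) and Cdca8 (0.16). Cenpa, which encodes the centromere histone, went the other way: its signal was 78.7 with pioglitazone and 7.20 with vehicle. It was well above background with pioglitazone alone and at least 9.70-fold higher there, before allowing for the technical error (0.37 on the log2 scale). The kinase Aurkb was likewise seen with pioglitazone alone. Its signals of 10.5 with pioglitazone and 7.14 with vehicle gave a difference of 0.47, within 2 times its error (0.89). Cenpf and Prc1 were seen with vehicle alone. Set against the lowest signal well above background with pioglitazone, they were 1.61-fold and 1.51-fold lower there, or 0.69 and 0.59 on the log2 scale. These bounds were smaller than 2 times the error of the measured differences (1.13 and 1.10). The measured differences themselves, -1.29 and -1.13, exceeded it. They rest on pioglitazone signals of 4.73 and 4.93, which were not well above background. With 1 array per group the difference between the lists was not tested.

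Markers of several other cell types also had differences below 0, and some met the criterion. Of all measured genes, 43.8% were below 0 and 1.76% were lower. All 9 measured macrophage markers of 10 were below 0 and 1 was lower, with a median of -0.35 and a summed signal of 10678 with pioglitazone and 12769 with vehicle. All 7 measured lymphocyte markers of 10 were below 0 and 1 was lower, with a median of -0.30 and a summed signal of 1340 with pioglitazone and 1539 with vehicle. All 5 measured erythroid markers were below 0 and 1 was lower, with a median of -0.47. Their summed signal was 6788 with pioglitazone and 7689 with vehicle. A large part of it was Slc4a1, with signals of 3940 with pioglitazone and 3810 with vehicle. Slc4a1, at -0.03, is also on the intercalated cell list. For fibroblast markers the median was -0.36, and 1 of 7 was lower. Among urothelial markers 3 of 6 were lower, and the median was -0.46. The largest marker differences were in the adipocyte list, where 2 of 3 measured markers were lower, Retn at -2.27 and Ucp1 at -1.78, while Adipoq was at -0.10. The endothelial median was -0.04 over 5 genes, and that of collecting duct principal cells -0.05 over 4. Proximal tubule markers were all above 0, with a median of 0.09, and 5 of 6 were within 1 technical error. All had signals over 1000, a class in which the median of all measured genes was 0.05 and 33.7% were below 0. The medians were 0.09 for the thick ascending limb, 0.20 for intercalated cells and 0.22 for podocytes. The part of these cell types in the differences of the replication genes was not tested.

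**Figure D4:**
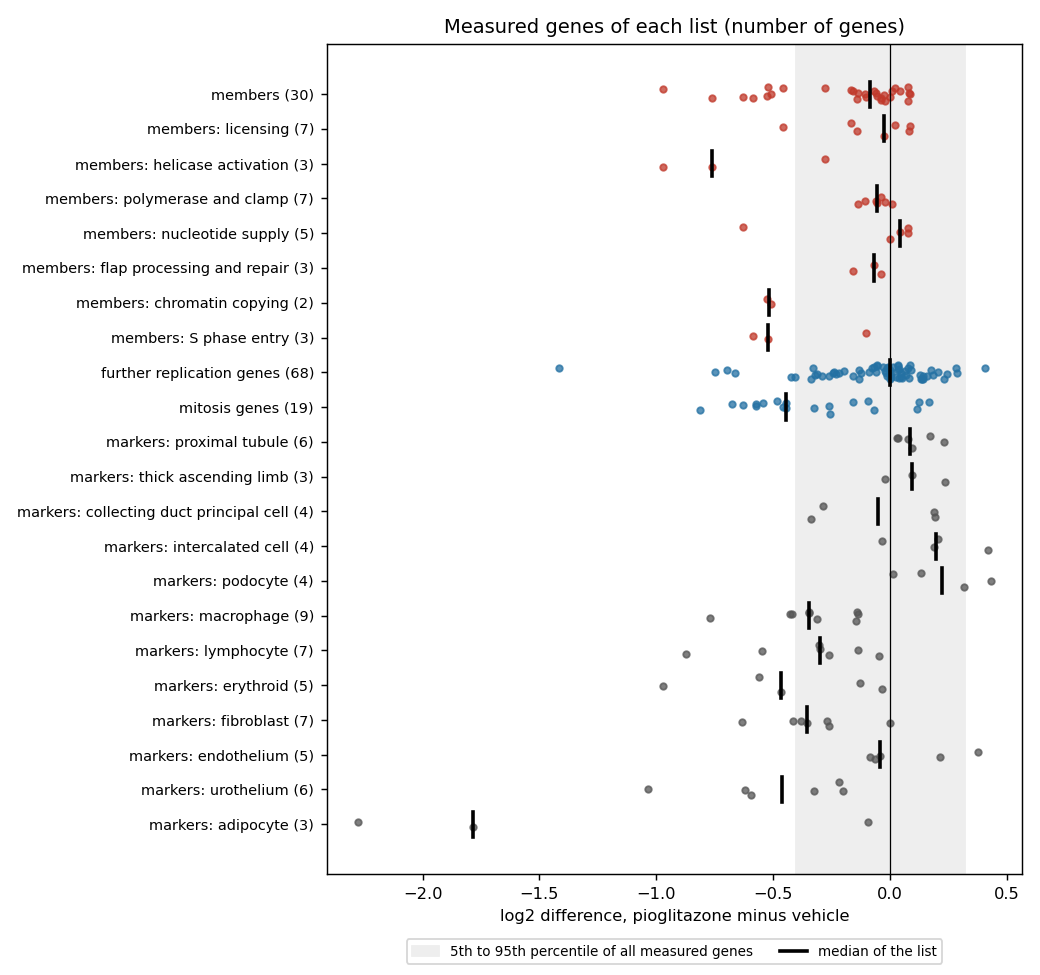
Log2 difference (pioglitazone minus vehicle) of each measured gene, by list, with the number of genes in parentheses, black bars at list medians and a grey band from the 5th to the 95th percentile of all measured genes (-0.40 to 0.32). The members' median is -0.09, that of their 3 helicase activation genes -0.76 and that of the mitosis genes -0.44. The band describes single genes and gives no spread for a list median.

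The calls of Mcm10 and Gins2 held under all 5 other scalings of the arrays, that of Rrm2 was lost under 2 of them and that of Ccne1 under 4. Scaling to the median, to detected probes or not at all shifts every gene alike, by too little to end the calls of Mcm10 and Gins2. With quantile scaling they were at -0.93 and -0.72, and with cyclic loess at -0.93 and -0.75. No scaling bears on the noise of single dim spots. Scaled to the median, Rrm2 was at -0.58 and Ccne1 at -0.53, and in the unscaled table they were at -0.55 and -0.50. Ccne1 was at -0.55 with quantile scaling and at -0.58 with cyclic loess. As a mean over its probes, Rrm2 was at -0.55 and also lost its call. After normexp background correction with an offset of 50, which exceeds the signals of Mcm10 and Rrm2 and so shrinks them by construction, none of the 4 was called. Mcm10 was then at -0.28, Gins2 at -0.27, Rrm2 at -0.20 and Ccne1 at -0.43, while Pclaf, at -0.68, was still lower by the criterion. All 5 genes were below 0 under each setting in which they were measured.

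**Figure D5:**
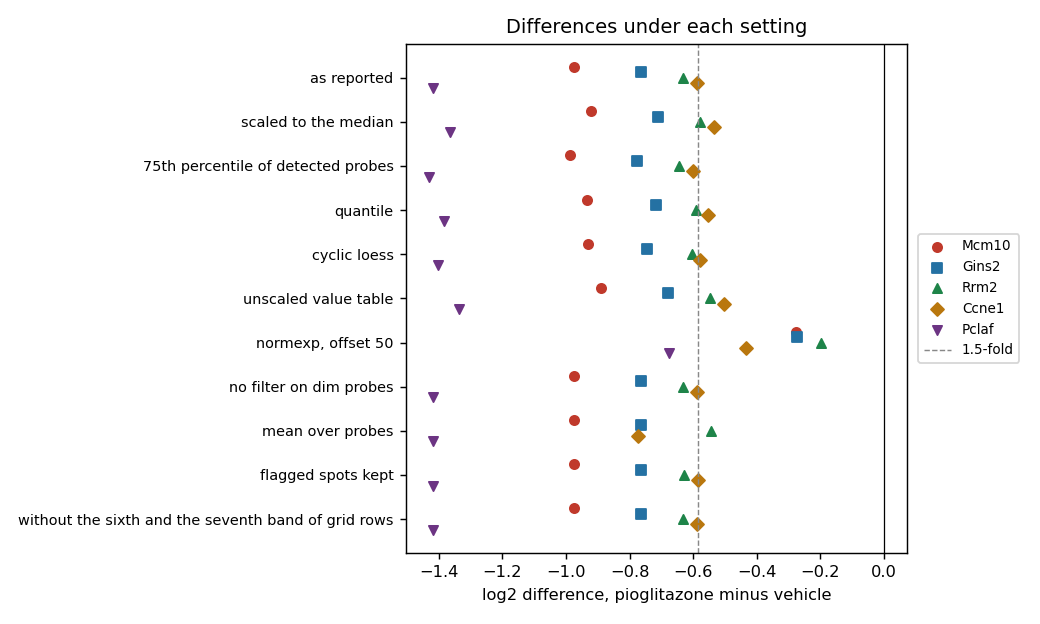
Log2 difference (pioglitazone minus vehicle) of Mcm10, Gins2, Rrm2, Ccne1 and Pclaf as reported and under 10 other settings, with a dashed line at 1.5-fold. The widest shifts are under normexp correction, where Mcm10 moves to -0.28 and Pclaf to -0.68, and Ccne1 lies near the line in most settings.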

How the data were processed

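Kidney RNA of 1 pioglitazone pool and 1 vehicle pool was measured on 1 single-colour Agilent array each, both on the same slide. Per the submitters' processing notes and file headers, the deposited intensity values come from Agilent Feature Extraction 10.7.3.1, which subtracted background and corrected trends within each array and did not scale arrays to each other. The series' deposited table repeats these intensity values at all 45018 features, with column medians of 47.7 for pioglitazone and 46.8 for vehicle, so its scale is linear and uncentred.

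From 43379 spots per array, 149 with outlier flags were left out. None was saturated, and 73.1% and 71.8% were well above background in the pioglitazone and the vehicle array. Values were log2-transformed, reduced by each array's 75th percentile and averaged over spots of a probe. Probes were named through unversioned RefSeq accessions of the GRCr8 table, which named 16959 of 40998. A gene took its brightest probe and counted as measured if well above background on both arrays. A gene seen on 1 array has a bound, set against the higher of its own signal and the lowest signal well above background on the other array. This bound leaves out the technical error. The number of arrays limits the precision. Files were read with Python 3.11.15, alternatives were fitted with limma 3.58.1, and the steps were tested on simulated data.

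The members and lists were chosen with earlier results of these data known. Full values go to members past the criterion, to those seen on 1 array and to the extremes of each role, and in the wider and the mitosis lists to genes past the criterion and the extremes. Gins3, Gins4, Rrm2b, Shmt2, Aurka, Kif23, Cenpa, Aurkb, Cenpf, Prc1, Retn, Ucp1 and Adipoq were named outside this rule after their values were seen, as were the promoters of members near 0.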

Additional observations from a re-analysis of the deposited data

How the results depend on the processing

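The count of lower members, 4 as reported, was 2 when arrays were scaled to the median and 2 in the unscaled table, which moved the median of all measured genes to 0.11. It was 0 with normexp correction, 0 among the 10 members above the median signal and 0 at 2-fold, where 0.296% of all measured genes were lower. It stayed within 1.5 times under the other 8 of 13 settings. The count below 0, 23 of 30, was 15 in the unscaled table and 8 of 10 above the median signal. No member was higher under any of the 13 settings, and the members' median lay between -0.11 and -0.005 over the 11 settings that bear on it. Normexp was run on median spot signals, since mean signals are not used here, and the software's error was kept for its calls. Without the sixth and the seventh of 10 bands of grid rows, 24 members remained measured and 4 were lower. Chaf1b was then no longer measured, and E2f1, read from its dim second probe, was at -0.02. Beyond the shrinkage described for normexp and the smaller number of genes above the median signal, the cause was not tested. No paired analysis was possible because there is a single array on each side. With 1 pool per group, no setting shows how far pools of the same treatment would differ.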
